A study of Mus musculus with 6 samples.

Results

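Cholesterol synthesis and its control by SREBP2 were followed through 29 named genes, all 29 of which were found by symbol among the 45777 genes of the deposited table. The rule lists the genes by name and uses no measured value. They were read as 8 genes that lead to mevalonate and isoprenoid diphosphates, 12 genes that build the sterol from squalene synthesis onwards, and 9 genes of sensing, proteolytic activation, transport and lysosomal release. RNA was sequenced from epididymal white adipose tissue, the fat pad beside the epididymis, of C57BL/6 mice fasted for 24 h. The 3 libraries labelled KO came from mice with Adipoq-Cre and loxP-flanked (flox/flox) Pak4, and the 3 labelled WT from Pak4 flox/flox mice with no Cre named. Pak4 is a serine/threonine kinase of the p21-activated family. Adipoq-Cre acts in adipocytes, so other cells of the pad are outside its design, and the floxed alleles were carried by all 6 libraries. The labels used here give no age, name adipocytes as the cell type although whole fat pads were extracted, and number the libraries without tying each to its own mouse. A p-value therefore reflects only the variation among these 6 libraries, part of which may be technical.

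Total counts ran from 62854465 to 72005658 per library. Pak4, the targeted gene, had 815, 744 and 675 counts in the libraries labelled KO, against 339, 337 and 358 counts in those labelled WT. It was thus higher in every library labelled KO, opposite to the labels, and every direction is therefore given between libraries by their labels. All 10 markers of mature adipocytes had reads, with a summed level of 90262 to 97655 TPM (a level scaled to transcript length and library total) in the libraries labelled KO and 78096 to 91565 TPM in those labelled WT. Cfd alone had 27197, 32768 and 37510 TPM in the libraries labelled KO, against 22643, 8822 and 14766 TPM in those labelled WT, so it weighed heavily in the sum. Of the 10 markers, 3 lay above and 7 below 0 in log2 fold change (KO-labelled over WT-labelled), with a median of -0.27. Pparg and Cfd were higher and Pnpla2 and Aqp7 lower in every library labelled KO. The part of this spread among adipocyte genes in the values of the pathway was not tested. Of 6 markers of epididymal epithelium, Lcn5, Lcn8, Lcn9 and Cst8 had 0 counts in all 6 libraries, and the list summed to at most 0.251 TPM. In a bulk sample, fewer cells of a type and less RNA per cell cannot be told apart.

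Cholesterol is made in the endoplasmic reticulum from acetyl-CoA, through mevalonate, isoprenoid diphosphates, squalene and lanosterol. When sterols are scarce, SCAP carries the membrane-bound factor SREBP2 to the Golgi, where the proteases encoded by Mbtps1 and Mbtps2 release its active part. When sterols are plentiful, the INSIG proteins hold SCAP back. The released factor binds sterol regulatory elements, usually beside CCAAT boxes bound by NF-Y, in the promoters of most enzymes of the pathway. Adipocytes store a large pool of free cholesterol at the lipid droplet and membrane but are known to take much of it from lipoproteins.

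Promoters of the pathway are shown because its enzymes share regulatory letters while their transcripts differed in direction. RefSeq windows of GRCm38.p6, from 250 bases before to 50 bases after the annotated start, were at hand for 24 of the 29 genes. Fdps, Fdft1, Sqle, Stard4 and Npc1 had no window, so their promoters were not searched. Both strands were searched for 3 motifs, TCACNCCAC (a sterol regulatory element), CCAAT and CACGTG (an E-box), with overlapping matches allowed. CCAAT stood in 20 of the 24 genes (83.3%), against 41.1% of 27025 genes with a window, and in all 10 of the sterol-step genes that had one. TCACNCCAC stood in 1 of the 24 genes (4.17%), Hmgcs1, against 1.44% of all genes. CACGTG stood in Hsd17b7, Sc5d, Dhcr7, Scap and Insig1, 20.8% of the 24 genes against 8.09%. A match is a description of letters and not a binding site. Only the string TCACNCCAC was searched for the element, so a gene without a match is not shown to lack a sterol regulatory element. The first window belongs to Hmgcs1, the gene with the match to TCACNCCAC. The next pair is Tm7sf2 and Nsdhl, the sterol enzymes farthest below 0 in log2 fold change (KO-labelled over WT-labelled). The last pair is Lbr and Msmo1, the sterol enzymes higher in every library labelled KO. Letters run 5′ to 3′ on the gene's strand, and capitals mark the matches. CCAAT on the other strand reads ATTGG, and TCACCCCAC in Hmgcs1 is the match to TCACNCCAC.
Hmgcs1, chr13:119690101-119690400, plus strand: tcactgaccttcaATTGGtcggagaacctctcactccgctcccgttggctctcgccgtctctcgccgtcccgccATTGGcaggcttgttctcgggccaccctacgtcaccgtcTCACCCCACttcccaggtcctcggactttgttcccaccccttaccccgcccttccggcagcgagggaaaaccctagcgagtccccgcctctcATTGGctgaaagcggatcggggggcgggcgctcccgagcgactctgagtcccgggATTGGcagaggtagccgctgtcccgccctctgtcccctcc
Tm7sf2, chr19:6067801-6068100, minus strand: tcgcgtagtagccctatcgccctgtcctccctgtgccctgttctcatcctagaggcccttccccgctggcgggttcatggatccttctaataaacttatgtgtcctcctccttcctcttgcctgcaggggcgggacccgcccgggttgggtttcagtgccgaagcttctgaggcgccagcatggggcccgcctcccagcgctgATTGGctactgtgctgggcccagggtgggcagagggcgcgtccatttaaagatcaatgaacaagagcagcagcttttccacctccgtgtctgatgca
Nsdhl, chrX:72918271-72918570, plus strand: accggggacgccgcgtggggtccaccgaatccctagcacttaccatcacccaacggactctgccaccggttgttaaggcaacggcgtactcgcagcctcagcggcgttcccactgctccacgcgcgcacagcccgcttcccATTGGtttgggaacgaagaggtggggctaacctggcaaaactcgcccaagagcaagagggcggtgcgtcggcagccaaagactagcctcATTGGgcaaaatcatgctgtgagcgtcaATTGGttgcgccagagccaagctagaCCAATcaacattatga
Lbr, chr1:181842352-181842651, minus strand: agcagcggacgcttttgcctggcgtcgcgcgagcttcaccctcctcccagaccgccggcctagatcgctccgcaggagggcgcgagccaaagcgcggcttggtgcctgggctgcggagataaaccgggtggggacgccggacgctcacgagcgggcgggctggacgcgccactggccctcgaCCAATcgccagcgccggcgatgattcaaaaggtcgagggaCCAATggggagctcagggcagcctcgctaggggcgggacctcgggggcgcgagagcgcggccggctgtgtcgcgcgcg
Msmo1, chr8:64733529-64733828, minus strand: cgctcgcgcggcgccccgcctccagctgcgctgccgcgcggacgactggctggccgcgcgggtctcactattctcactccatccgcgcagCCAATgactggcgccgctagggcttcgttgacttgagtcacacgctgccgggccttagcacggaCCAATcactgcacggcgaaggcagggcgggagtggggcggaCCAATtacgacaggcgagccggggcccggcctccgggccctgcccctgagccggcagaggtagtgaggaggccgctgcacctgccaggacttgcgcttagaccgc

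In Hmgcs1 the match to TCACNCCAC lay at -137 to -129 from the start, and the nearest of its 4 CCAAT boxes at -176 to -172 and at -45 to -41. Tm7sf2 held 1 CCAAT box, Lbr 2, Msmo1 3 and Nsdhl 4. These sterol enzymes all carried the box, as did all 10 sterol-step genes with a window. Its presence therefore could not separate enzymes lower from enzymes higher in the libraries labelled KO.

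Levels of the 29 genes spanned a wide range in this fat pad. Npc2, a soluble lysosomal protein that hands cholesterol to NPC1, was the highest at a mean of 476 TPM over the 6 libraries. Hmgcs1, the cytosolic synthase that commits acetoacetyl-CoA to the pathway, followed at 197 TPM. The sensors Insig2 and Insig1 came next at 90.9 and 67.0 TPM, with every library's Insig2 above the range of Insig1, though by under 1 TPM at the nearest (80.8 against 80.3 TPM, both in libraries labelled WT). Sc5d, a desaturase of the last steps, stood at 53.7 TPM and Pmvk, the phosphomevalonate kinase, at 51.2 TPM. Most sterol enzymes were far lower. Sqle, the squalene epoxidase that is a control point of the pathway, had 3.26 TPM, Dhcr7, which closes one route to cholesterol, 3.51 TPM, and Stard4, a sterol carrier of the cytosol, 2.92 TPM. The lowest single count was for Tm7sf2, which had 151 to 673 counts per library. The 29 genes together took 0.189% to 0.222% of the counts in the libraries labelled KO and 0.226% to 0.230% in those labelled WT. These are shares of the deposited counts, with no correction for composition. Npc2 had 46071 to 73329 counts per library and Hmgcs1 18762 to 29146, so both weighed heavily in the share. Each of them overlapped between labels.

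**Figure D1:**
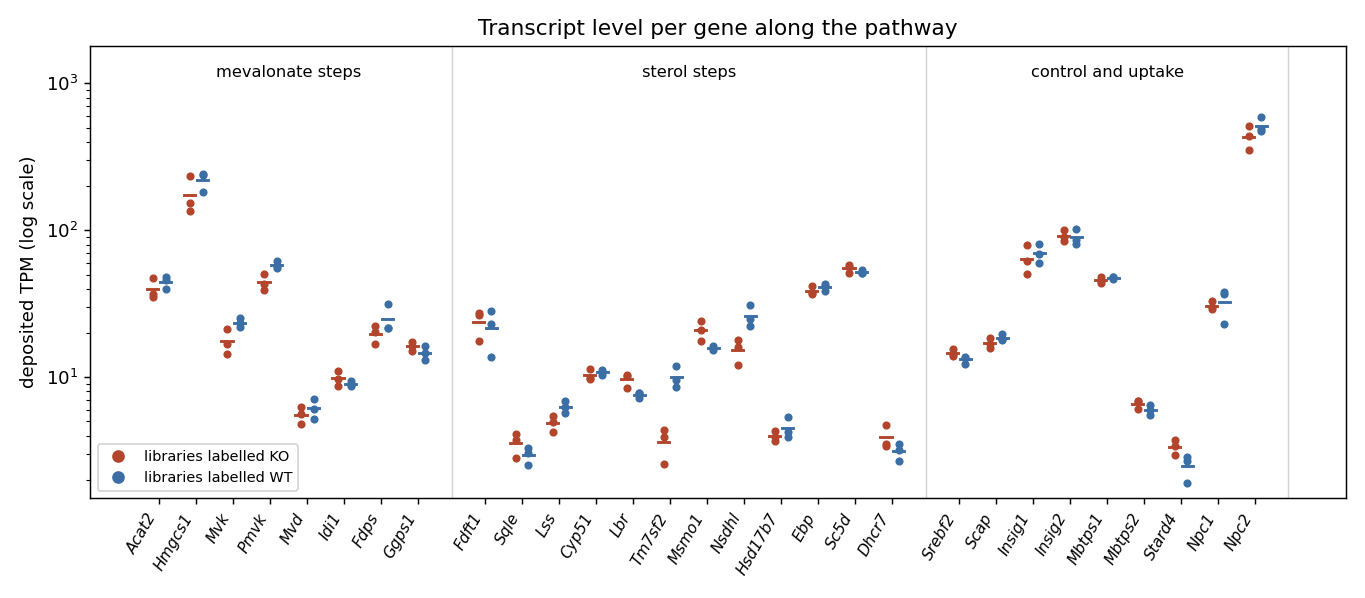
Deposited TPM of the 29 genes on a log scale, with 1 point per library and a line at each group's mean, libraries labelled KO left of those labelled WT. Npc2 and Hmgcs1 stand highest and Stard4 lowest, and Tm7sf2 shows the widest gap between the labels.

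No gene of the pathway passed the threshold between the labels. In the quasi-likelihood test of edgeR, with p adjusted over 17820 genes by Benjamini-Hochberg, 0 of 29 had an adjusted p under 0.05, where 3 genes (0.0168%) of all tested did. At an unadjusted p under 0.05, 2 of 29 stood higher and 5 of 29 stood lower in those labelled KO, against 9.66% and 9.71% of all genes. On TMM-scaled CPM (counts relative to library size, corrected for composition), 2 of 29 lay above in every library labelled KO and 6 of 29 lay below, against 13.7% and 12.5% of all genes. On deposited TPM 4 of 29 lay above and 5 of 29 below, against 17.1% and 8.54% of all genes. These shares of the 29 differ from those of all genes by a few genes at most. Each log2 fold change is KO-labelled over WT-labelled, ± SE, and each mean level is ± SD with n = 3 per label. With DESeq2, 3 of 29 passed (Tm7sf2, Nsdhl and Pmvk, all lower in the libraries labelled KO), where 3.86% of all genes were called lower and 2.61% higher. Without the library labelled KO 1, edgeR called Tm7sf2, Nsdhl, Mvk and Hmgcs1 lower, where 3.49% of all genes were called lower and 2.08% higher. With limma voom 0 of 29 passed. Scaling by library size only shifted the median of all genes to 0.13, against 0.02 with TMM, and turned the medians of the sterol genes (to 0.07) and of the control genes (to 0.01) above 0, while relative to all genes these stayed at -0.07 and -0.13.

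**Figure D2:**
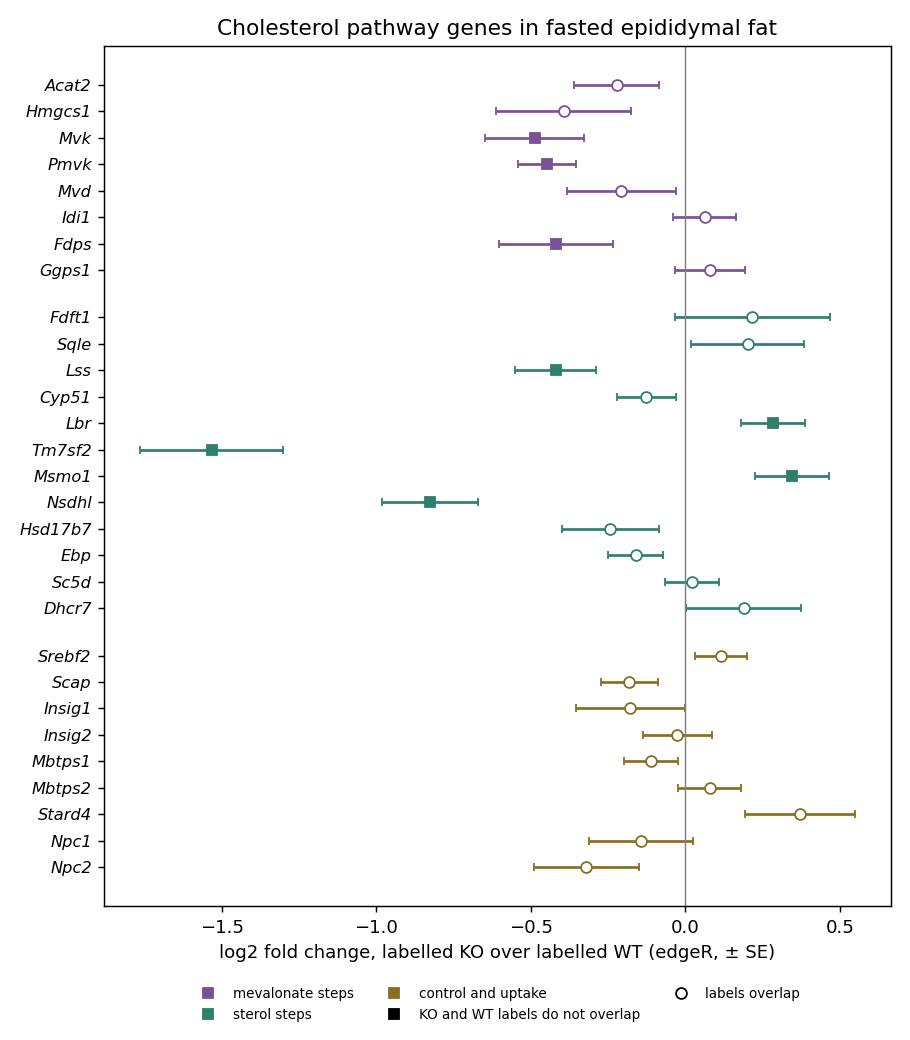
Log2 fold change of each gene, libraries labelled KO over libraries labelled WT, with its SE from edgeR, ordered by pathway step. Filled squares mark the 8 genes whose libraries do not overlap on TMM-scaled CPM. Tm7sf2 (-1.53) and Nsdhl (-0.83) lie farthest from 0.

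Markers of other cells were read in the same libraries. All 7 endothelial markers lay below 0, summing to 110 to 142 TPM in the libraries labelled KO and 153 to 204 TPM in those labelled WT. All 9 macrophage markers lay above 0, summing to 1975 to 2938 TPM in the libraries labelled KO and 1952 to 2400 TPM in those labelled WT. Of 6 progenitor and fibroblast markers 4 lay above 0, and the 6 summed to 2062 to 3347 TPM in the libraries labelled KO and 1685 to 1961 TPM in those labelled WT. Dcn alone had 1713, 2805 and 2900 TPM in the libraries labelled KO, against 1580, 1290 and 1501 TPM in those labelled WT, while Pi16 and Col1a1 lay below 0. All 6 mesothelial markers lay above 0, summing to 585 to 719 TPM in the libraries labelled KO and 353 to 601 TPM in those labelled WT. All 5 smooth muscle markers summed to 77.7 to 269 TPM in the libraries labelled KO and 156 to 1060 TPM in those labelled WT, with 1 above 0 and 4 below. Acta2 alone ran from 35.3 to 989 TPM over the 6 libraries. Lymphocyte markers (4 above 0 and 1 below) summed to 14.3 to 19.8 TPM in the libraries labelled KO and 9.81 to 15.6 TPM in those labelled WT. Skeletal muscle markers summed to 11.1 to 192 and 98.3 to 691 TPM in the same order, and Acta1 alone ran from 10.4 to 690 TPM. The endothelial and the progenitor sums did not overlap between labels, the latter made up mostly of Dcn, and the other sums overlapped. The part of these cells in the values of the pathway was not tested.

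Of the mevalonate genes, 6 of 8 lay below 0, with a median log2 fold change of -0.31 beside 0.02 for all genes tested. Summed over the 8 genes, the level was 388, 311 and 283 TPM in the libraries labelled KO, against 422, 364 and 418 TPM in those labelled WT. The sums overlapped, because the library labelled KO 1 stood above the one labelled WT 2. Hmgcs1 alone had 234, 154 and 134 TPM in the libraries labelled KO, against 242, 181 and 238 TPM in those labelled WT, so it weighed heavily in the sum.

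Hmgcs1 had 433, 273 and 252 CPM in the libraries labelled KO, against 462, 360 and 437 CPM in those labelled WT. The library labelled KO 1 lay within the range of those labelled WT, and the other 2 lay below it. The log2 fold change was -0.39 ± 0.22 (adjusted p 0.345 in edgeR) and -0.68 ± 0.14 without the library labelled KO 1 (adjusted p 0.0446 in edgeR). Without the library labelled KO 3 it was -0.25 ± 0.22 (adjusted p 0.681 in edgeR). Hmgcs1 shares 557 exonic bases with Gm48342 on the opposite strand, which was not analysed here.

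The mevalonate kinases were both lower in every library labelled KO. Mvk, which phosphorylates mevalonate, had 19.6, 14.8 and 13.3 CPM in the libraries labelled KO, against 22.1, 24.9 and 19.9 CPM in those labelled WT. Its lowest library labelled WT and the library labelled KO 1 were nearly level, and the log2 fold change was -0.49 ± 0.16 (adjusted p 0.191 in edgeR). Pmvk, the next kinase, had 27.4, 30.4 and 24.9 CPM in the libraries labelled KO, against 37.0, 37.5 and 38.3 CPM in those labelled WT. The libraries labelled WT lay within a narrow band of 37.6 ± 0.631 CPM and clear of those labelled KO, at a log2 fold change of -0.45 ± 0.09 (adjusted p 0.130 in edgeR). Without the library labelled KO 1, Mvk stood at -0.67 ± 0.13 (adjusted p 0.0413 in edgeR) and Pmvk at -0.44 ± 0.11 (adjusted p 0.0602 in edgeR). With DESeq2, Mvk stood at -0.50 ± 0.19 (adjusted p 0.0813) and Pmvk at -0.46 ± 0.12 (adjusted p 0.00630). Each passed in 1 of 12 alternatives, with an adjusted p of up to 0.470 for Mvk and 0.403 for Pmvk in edgeR.

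Fdps, which joins isoprene units into farnesyl diphosphate, had 13.6, 14.6 and 11.4 CPM in the libraries labelled KO, against 15.2, 22.8 and 14.9 CPM in those labelled WT. The gap was small and the library labelled WT 2 stood apart on the high side, at a log2 fold change of -0.42 ± 0.18 (adjusted p 0.265 in edgeR). Without that library it was -0.19 ± 0.13. On deposited TPM the labels overlapped for Fdps, with 22.2 TPM in the library labelled KO 2 and 21.6 TPM in the one labelled WT 1. Acat2, the cytosolic thiolase that makes acetoacetyl-CoA, stood at -0.22 ± 0.14 and Mvd, which decarboxylates the diphosphate, at -0.21 ± 0.18. Idi1, the isomerase of isopentenyl diphosphate, and Ggps1, which makes geranylgeranyl diphosphate for protein prenylation, stood at 0.06 ± 0.10 and 0.08 ± 0.11. All 4 overlapped between labels. Acat2 is 97.7% identical to Acat3 over 1477 bases and 98.7% identical to a part of Tcp1 over 445 bases, so its counts are uncertain, and Fdps and Idi1 have processed pseudogenes with over 95% identity, of which those in the table had at most 11 counts. Fdps also shares 1124 exonic bases with Gm43738 on the same strand, and Ggps1 shares 257 with Arid4b on the opposite strand.

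The sterol genes were split, with 6 above and 6 below 0 and a median log2 fold change of -0.05. Summed over the 12 genes, the level was 185, 212 and 186 TPM in the libraries labelled KO, against 195, 200 and 212 TPM in those labelled WT, and the labels overlapped. Behind these sums stood genes that lay apart in both directions, among them the pair farthest below 0 of the 29, Tm7sf2 and Nsdhl.

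Tm7sf2 encodes one of a pair of enzymes that reduce the double bond left when lanosterol loses its first methyl group. It lies on chromosome 19 at 6062821 to 6067850 in mm10. It had 3.11, 3.30 and 2.03 CPM in the libraries labelled KO, against 6.89, 10.04 and 7.43 CPM in those labelled WT. Even the highest library labelled KO was under the lowest one labelled WT by a wide margin. The means were 2.81 ± 0.686 CPM in the libraries labelled KO and 8.12 ± 1.69 CPM in those labelled WT, a log2 fold change of -1.53 ± 0.23 (fold 0.346, adjusted p 0.0898 in edgeR). With DESeq2 the adjusted p was 7.87e-07, and without the library labelled KO 1 it was 0.0347 in edgeR, at a log2 fold change of -1.61 ± 0.27. Tm7sf2 shares 532 exonic bases with Vps51 on the same strand in the GENCODE annotation, and Vps51, a subunit of a tethering complex for vesicles, stood at 0.11 ± 0.10. The counting of reads in the shared bases is not given, so the size of the Tm7sf2 difference is uncertain to that extent.

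Lbr, the lamin B receptor of the nuclear envelope, carries the same reductase activity and stood on the other side of 0. It had 15.98, 18.4 and 19.6 CPM in the libraries labelled KO, against 15.1, 14.6 and 14.6 CPM in those labelled WT. The libraries labelled WT were nearly level, and the library labelled KO 1 lay just above them, at a log2 fold change of 0.28 ± 0.10 (adjusted p 0.211 in edgeR). Per transcript length, Tm7sf2 stood at 0.467, 0.432 and 0.247 of the TPM of Lbr in the libraries labelled KO, against 1.09, 1.65 and 1.23 in those labelled WT. Lbr was thus the more abundant of the pair in every library labelled KO, and Tm7sf2 in every library labelled WT. The log2 ratio differed by -1.83 between the labels, with an exact two-sided permutation p of 0.1, the smallest that 3 against 3 libraries can give.

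Msmo1, Nsdhl and Hsd17b7 act in turn to remove the remaining pair of methyl groups, on a complex that ERG28 holds together, and they did not share a direction. Nsdhl, the decarboxylating dehydrogenase (chromosome X, 72918521 to 72958528 in mm10), had 18.8, 20.05 and 14.4 CPM in the libraries labelled KO, against 26.9, 31.5 and 36.0 CPM in those labelled WT. The labels were clear of each other, at a log2 fold change of -0.83 ± 0.16 (adjusted p 0.119 in edgeR, 0.0479 in edgeR without the library labelled KO 1, and 5.92e-04 in DESeq2). Msmo1, the oxidase that opens the cycle, had 17.4, 22.8 and 20.8 CPM in the libraries labelled KO, against 16.5, 16.5 and 14.95 CPM in those labelled WT. All 3 libraries labelled KO lay above, the one labelled KO 1 by less than 1 CPM, at a log2 fold change of 0.35 ± 0.12 (adjusted p 0.198 in edgeR). Hsd17b7, the ketoreductase that ends the cycle, stood at -0.24 ± 0.16 with overlapping labels.

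Lss, which folds squalene epoxide into lanosterol, had 18.2, 15.8 and 14.3 CPM in the libraries labelled KO, against 19.6, 24.6 and 20.4 CPM in those labelled WT. All 3 libraries labelled KO lay below, at a log2 fold change of -0.42 ± 0.13 (adjusted p 0.177 in edgeR). The other 7 sterol genes overlapped between labels. Sqle, just upstream of Lss, stood at 0.20 ± 0.18, and Cyp51, the demethylase of lanosterol, at -0.13 ± 0.10, with 166 exonic bases shared with the opposite-strand gene Akap9. The late enzymes Ebp, an isomerase, Sc5d and Dhcr7 stood at -0.16 ± 0.09, 0.02 ± 0.09 and 0.19 ± 0.19. Fdft1, the squalene synthase that commits farnesyl diphosphate to sterols, ranged from 27.0 CPM in the library labelled WT 2 to 56.8 CPM in the one labelled KO 3 (0.22 ± 0.25). It shares 774 exonic bases with the opposite-strand gene Ctsb, a lysosomal protease at 797 to 1224 TPM, and whether the counting used strand is not given in the sources, so Fdft1 is uncertain.

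**Figure D3:**
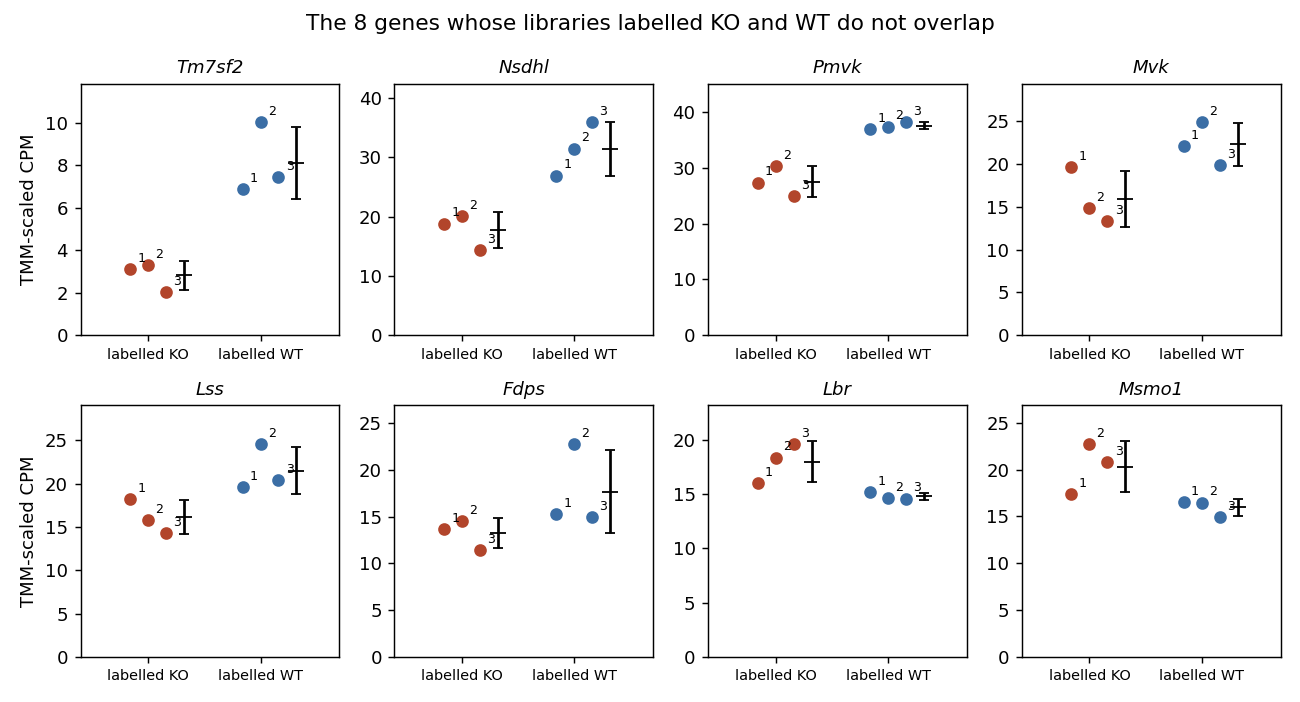
TMM-scaled CPM of the 8 genes whose libraries do not overlap between labels, with 1 numbered point per library and the mean ± SD beside each group of 3, libraries labelled KO on the left. Tm7sf2, Nsdhl, Pmvk, Mvk, Lss and Fdps lie lower and Lbr and Msmo1 higher in the libraries labelled KO.

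All 9 genes of control, transport and release overlapped between labels, and 0 had an unadjusted p under 0.05 in edgeR. Their median log2 fold change was -0.11. Summed, they had 728, 793 and 604 TPM in the libraries labelled KO, against 756, 852 and 783 TPM in those labelled WT, and Npc2 made up most of each sum.

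Srebf2, which encodes SREBP2, had 38.5, 40.3 and 37.8 CPM in the libraries labelled KO, against 33.5, 38.1 and 36.1 CPM in those labelled WT (log2 fold change 0.12 ± 0.08, adjusted p 0.469 in edgeR). The lowest library labelled KO lay just under the highest one labelled WT. On deposited TPM the labels did not overlap, but the lowest library labelled KO (KO 3, 13.9 TPM) was nearly level with the highest one labelled WT (WT 3, 13.8 TPM). Scap, its escort, had 41.8, 36.2 and 35.9 CPM in the libraries labelled KO, against 41.1, 44.0 and 44.1 CPM in those labelled WT (-0.18 ± 0.09, adjusted p 0.311 in edgeR). The library labelled KO 1 lay among those labelled WT.

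Insig1, an INSIG gene that is itself a target of SREBPs, had 112, 82.9 and 71.9 CPM in the libraries labelled KO, against 86.1, 104 and 112 CPM in those labelled WT. Its highest and its lowest value were both in libraries labelled KO, and the log2 fold change was -0.18 ± 0.18 (adjusted p 0.601 in edgeR). Insig2, its paralogue with a fasting-induced form in mouse liver, had 128, 137 and 123 CPM in the libraries labelled KO, against 151, 123 and 121 CPM in those labelled WT. The labels lay on top of each other, at -0.03 ± 0.11 (adjusted p 0.920 in edgeR), or 0.09 when scaled by library size only. Insig1 stood at 0.892, 0.610 and 0.599 of the TPM of Insig2 in the libraries labelled KO, against 0.581, 0.858 and 0.931 in those labelled WT. Insig2 was thus the higher of the paralogues in all 6 libraries. The log2 ratio differed by -0.17 between the labels, with an exact two-sided permutation p of 0.8.

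**Figure D4:**
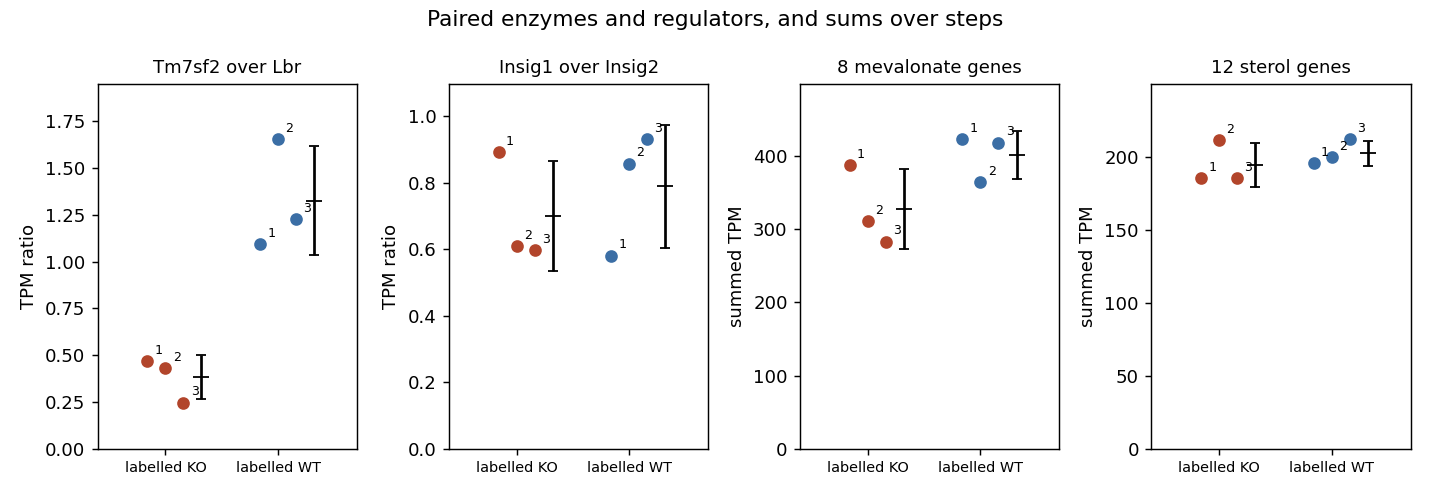
Linear TPM ratios of Tm7sf2 over Lbr and of Insig1 over Insig2, and TPM summed over the 8 mevalonate and the 12 sterol genes, with 1 numbered point per library and the mean ± SD, libraries labelled KO on the left. The labels are apart for Tm7sf2 over Lbr and overlap in the other 3 panels.

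The proteases that free SREBP2 were close to 0, with Mbtps1 (site-1 protease) at -0.11 ± 0.09 (0.01 when scaled by library size only) and Mbtps2 (site-2 protease) at 0.08 ± 0.10. Mbtps2 shares 2867 exonic bases with Yy2 on the same strand, which had at most 1.09 TPM. Stard4 stood at 0.37 ± 0.18, or 0.21 ± 0.15 without the library labelled WT 1, with 8.34 to 10.1 CPM in the libraries labelled KO and 5.55 to 8.67 CPM in those labelled WT. Its labels overlapped on CPM and did not on deposited TPM, where they spanned 2.95 to 3.74 and 1.91 to 2.87 TPM. Npc2 had 756, 845 and 618 CPM in the libraries labelled KO, against 843, 1094 and 835 CPM in those labelled WT (-0.32 ± 0.17, adjusted p 0.327 in edgeR). One library labelled KO, KO 2, lay within the range of those labelled WT. Npc1, the membrane partner of NPC2 in the lysosome, stood at -0.14 ± 0.17. It shares 511 exonic bases with Rmc1 on the opposite strand, itself at -0.35 ± 0.09, so the fold change of Npc1 is uncertain.

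The libraries labelled KO were not alike across the pathway. The library labelled KO 1 was the nearest of the 3 to the mean of those labelled WT for 15 of the 29 genes, KO 2 for 10 and KO 3 for 4. The library labelled KO 1 lay within the range of those labelled WT for 12 genes, KO 2 for 9 and KO 3 for 6.

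Genes that feed, use and regulate the pathway were read from 5 further lists, of which 60 genes were tested and 0 passed in edgeR over all genes. At an unadjusted p under 0.05, 5 of 60 lay above and 10 of 60 below in the libraries labelled KO, beside 9.66% and 9.71% of all genes. DESeq2 called 5 of 60 lower (Slc25a1, Vldlr, Acss2, Cyb5b and Aacs) and 0 higher, beside 3.86% and 2.61% of all genes. Without the library labelled KO 1, edgeR called 5, of which Slc25a1, Vldlr and Dhdds (a partner of Nus1) lay lower and Soat1 and Nceh1 higher, beside 3.49% of all genes called lower and 2.08% called higher, which is near the share of the 60. On the acetyl-CoA and ketone side, 5 of 7 genes lay below 0 (median -0.12). Slc25a1, the carrier that exports citrate from mitochondria, had 143, 145 and 130 CPM in the libraries labelled KO, against 230, 204 and 245 CPM in those labelled WT (-0.70 ± 0.11, adjusted p 0.0898 in edgeR). Acss2, which activates acetate, stood at -0.82 ± 0.18 and Aacs, which activates acetoacetate in the cytosol, at -0.37 ± 0.11. All 3, which had the smallest p of the list, were lower in every library labelled KO, while Acat2 and Hmgcs1, the first enzymes of the pathway itself, overlapped between labels. Over the list, 3 of 7 lay below in every library labelled KO and 0 above, against 12.5% and 13.7% of all genes.

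Of 14 genes that use isoprenoids, 6 lay below 0 (median 0.04). Fntb, a subunit of protein farnesyltransferase, stood at -0.45 ± 0.18, Coq2, which attaches the isoprenoid tail of coenzyme Q, at -0.21 ± 0.09, and Nus1, a subunit of the enzyme that makes dolichol precursors, at -0.21 ± 0.09. Each of these 3, which had the smallest p of the list, was lower in every library labelled KO. Over the list, 4 of 14 lay below in every library labelled KO and 0 above, against 12.5% and 13.7% of all genes. Among 19 genes of sterol sensing and turnover in the endoplasmic reticulum (median -0.04), 1 stood lower and 0 higher at an unadjusted p under 0.05 in edgeR, beside 9.71% and 9.66% of all genes. That 1 was Rnf145, a ubiquitin ligase, at -0.26 ± 0.08. The next smallest p belonged to Erlin2, a scaffold at sites of sterol-regulated degradation, at -0.21 ± 0.09, and Faf2, which recruits the extraction machinery, at -0.18 ± 0.09. In this list 4 of 19 lay below in every library labelled KO and 1 above, against 12.5% and 13.7% of all genes. Srebf1, the gene of the SREBP that drives fatty acid synthesis, had 266, 183 and 173 CPM in the libraries labelled KO, against 170, 185 and 206 CPM in those labelled WT, and the labels overlapped.

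Of 15 tested genes of sterol transport, storage and uptake (median -0.03), 4 stood higher and 1 lower at an unadjusted p under 0.05, beside 9.66% and 9.71% of all genes. Vldlr, a lipoprotein receptor, stood at -0.37 ± 0.11 and was lower in every library labelled KO, where 2 of the 15 lay below and 1 above, against 12.5% and 13.7% of all genes. Nceh1, which hydrolyses cholesteryl esters in macrophages, stood at 0.63 ± 0.21 and Soat1, which makes them, at 0.45 ± 0.16, both with overlapping labels. Npc1l1, the intestinal cholesterol importer, had 0 counts in all 6 libraries. Of the 5 tested electron donors and scaffold genes of the sterol steps (median -0.28), Cyb5b, a cytochrome b5 of the mitochondrial outer membrane, stood at -0.35 ± 0.10, Cyb5r3, a cytochrome b5 reductase, at -0.38 ± 0.15, and Erg28, the scaffold of the demethylation complex, at 0.30 ± 0.11. Erg28 lay above in every library labelled KO, as Msmo1 did, and Cyb5b and Cyb5r3 lay below. That is 1 of 5 above and 2 of 5 below, against 13.7% and 12.5% of all genes.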

How the data were processed

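Gene expression was measured by mRNA sequencing (TruSeq Stranded mRNA LT) of epididymal fat in all 6 libraries. The submitters' processing notes name HISAT2 2.1.0, Bowtie2 2.3.4.1, StringTie 2.1.3b and mm10, with no role or order. Per the file headers, the authors deposited whole-number read counts, FPKM and TPM for each library. The deposited counts entered every test, the deposited TPM gave levels and ratios, and the deposited FPKM served as a check, in which an FPKM of 0 stood beside a positive count for 2 to 6 genes per library. Genes kept by filterByExpr (minimum count 10, minimum total 15) were scaled by TMM (factors 1.01 to 1.07 in the libraries labelled KO, 0.931 to 0.976 in those labelled WT) and then modelled by label with edgeR 4.0.16 (R 4.3.3), using robust glmQLFit and two-sided glmQLFTest. DESeq2 1.42.0 ran on the same filtered genes and limma 3.58.1 as voom. Standard errors follow from the F statistic. The lowest chi-square between 2 libraries divided by its degrees of freedom was 46.9, so no library repeats another.

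The genes, lists and tests were chosen with earlier results of these data known. All 29 genes were named, with values per library for those without overlap, with an unadjusted p under 0.05, among the 3 highest in TPM, or encoding SREBP2, SCAP or an INSIG; other lists gave the 3 genes of smallest p, and Srebf1. Coordinates are RefSeq's for GRCm38.p6, the assembly of mm10. Overlaps and copies came from GENCODE M21 and BLAST (at least 95% identity over 200 bases). One listed gene, Faxdc2, was not analysed here.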

Additional observations from a re-analysis of the deposited data

How the results depend on the processing

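No gene of the 29 passed the adjusted threshold of 0.05 with limma voom, or in edgeR with RLE scaling, library size only, no filter on low counts or the replicate block, while 3 passed in DESeq2 and 0 to 4 with 1 library left out, the 4 without the library labelled KO 1. Genes called over the whole table numbered 3, against 1152 in DESeq2, 5 in limma voom, 1 with the replicate block and 1 to 1016 with 1 library left out, the 1016 without the library labelled KO 1. Calls in the further lists numbered 5 in DESeq2 and 0 to 5 with 1 library left out. No pairing by replicate number was seen. Deviations from the group means correlated at -0.17, -0.02 and 0.05 for numbers 1, 2 and 3, and at -0.19 to 0.19 between unlike numbers. With 3 libraries per label this cannot exclude pairing. The block changed no call among the 29 genes. Scaling by library size only moved the median of all genes to 0.13 from 0.02 on the log2 scale. Under it the medians became -0.20 for mevalonate, 0.0676 for sterol and 0.00731 for control and uptake genes, which relative to all genes is -0.33, -0.07 and -0.13, as with TMM to within 0.01, and Insig2 stood at 0.0934 and Mbtps1 at 0.00731. With 1 library left out the medians ran from -0.38 to -0.23, from -0.09 to -0.02 and from -0.16 to -0.0433 for mevalonate, sterol and control genes, and log2 fold changes crossed 0 for Dhcr7 (-0.0029 to 0.29), Fdft1 (-0.0239 to 0.45), Ggps1 (-0.0082 to 0.15), Idi1 (-0.0028 to 0.13), Insig2 (-0.0823 to 0.0803) and Sc5d (-0.0359 to 0.0588). The cause was not tested. Over 12 alternatives, the log2 fold change of Tm7sf2 ran from -1.66 to -1.34 and that of Nsdhl from -0.93 to -0.69, with adjusted p from 7.87e-07 to 0.403 and from 5.92e-04 to 0.403. The log2 ratio of Tm7sf2 over Lbr stayed between -1.996 and -1.54 with 1 library left out. Tm7sf2 had the lowest single count of the 29 genes, at 151 in its lowest library, and the part of depth in its values was not tested.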
